A study of Homo sapiens with 9 samples.

Results

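ALPK3, ANPEP and C19orf18 are 3 protein-coding genes, of 57820 genes counted, whose counts were high when Chrom-seq was run with the CBX1 reader in HEK293T cells. They were chosen by name as coding genes other than zinc finger genes whose counts were much higher with CBX1 than in the reader-free control. The comparison of CBX1 with the control is therefore given for them as a description and was not tested. ALPK3 (ENSG00000136383.6) lies on the plus strand at chr15:85359911-85416713 of hg19, ANPEP (ENSG00000166825.9) on the minus strand at chr15:90328120-90358633 and C19orf18 (ENSG00000177025.3) on the minus strand at chr19:58469805-58485902.

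ALPK3 encodes an alpha kinase, a member of a small family of kinases unlike the conventional ones, and is best known from heart muscle, where its loss causes cardiomyopathy. ANPEP encodes aminopeptidase N, also called CD13, a membrane enzyme that trims amino acids from the N termini of peptides. It is abundant on myeloid cells and on the brush borders of gut and kidney. C19orf18 encodes a predicted membrane protein whose function is not established, and it sits among the KRAB zinc finger genes near the end of chromosome 19. H3K9me3, the trimethylated form of lysine 9 on histone H3, marks silent chromatin, is bound by the chromodomain of HP1 proteins such as CBX1 and is known to cover many zinc finger gene clusters.

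Chrom-seq labels RNA near a chromatin mark in living cells. HEK293T, an embryonic kidney cell line, was transiently transfected in every group with a pair of plasmids. The first plasmid, under a chicken β-actin promoter, gave the APEX2 peroxidase fused to an antibody fragment, and the second, under a cytomegalovirus promoter, gave the GCN4 peptide array that this fragment binds. In the CBX1 group the array was fused to the CBX1 chromodomain. In the CBX1_W42A group the same chromodomain had the tryptophan of its aromatic cage, which holds the methylated lysine, changed to alanine. In the control group the array carried no reader. The labels of every group, the control included, also carry NLS, the usual abbreviation of nuclear localization signal, and do not explain it. After 48 hours of expression, RNA was labeled in the cells with biotin-aniline and a pulse of hydrogen peroxide, captured on streptavidin beads, selected for poly(A) and sequenced in 3 libraries per group, with 8379542 to 11082852 counts per library. No pair of replicates agreed within sampling noise (chi-square of 4.95 to 12.4 per degree of freedom). The study calls its replicates independent, and neither it nor the labels say whether they came from separate cultures, so p-values measure the spread between these libraries. The CBX1_W42A libraries carry later sample numbers than the control and CBX1 libraries, which run in sequence. The labels do not say whether all were prepared or sequenced together. In comparisons with CBX1_W42A, such a difference could not be told apart from an effect of the reader. The HEK293T markers VIM, NEFL, NEFM, INA, PAX2, KRT8 and KRT18 were all present, with summed levels of 977 to 1351 CPM (counts scaled to the library size).

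The sequences just upstream of the RefSeq start sites are shown because C19orf18 differs in them from ALPK3 and ANPEP. Each runs for 250 bases up to the start in the 5′ to 3′ direction of the gene, with CG dinucleotides in capitals. They were read from RefSeq promoters of GRCh38.p14, at chr15:84817106-84817355 (plus strand) for ALPK3, chr15:89814853-89815102 (minus strand) for the first of the ANPEP starts and chr19:57974535-57974784 (minus strand) for C19orf18.

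ALPK3: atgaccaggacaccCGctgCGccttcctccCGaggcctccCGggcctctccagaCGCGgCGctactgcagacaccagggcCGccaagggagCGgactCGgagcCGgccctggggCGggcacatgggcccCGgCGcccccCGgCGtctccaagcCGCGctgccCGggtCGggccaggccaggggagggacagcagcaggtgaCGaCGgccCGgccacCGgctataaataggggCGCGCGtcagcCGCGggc

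ANPEP: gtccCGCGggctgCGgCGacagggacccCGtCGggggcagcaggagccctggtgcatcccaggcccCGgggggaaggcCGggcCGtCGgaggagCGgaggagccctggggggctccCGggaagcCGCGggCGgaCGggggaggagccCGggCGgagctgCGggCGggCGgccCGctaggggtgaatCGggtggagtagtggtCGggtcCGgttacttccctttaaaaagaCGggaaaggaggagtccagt

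C19orf18: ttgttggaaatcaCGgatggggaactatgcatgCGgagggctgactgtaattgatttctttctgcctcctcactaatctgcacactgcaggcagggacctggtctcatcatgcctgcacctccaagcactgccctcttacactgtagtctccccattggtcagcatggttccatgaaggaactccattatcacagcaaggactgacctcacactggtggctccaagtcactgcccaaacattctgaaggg

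In hg19 these sequences had 1 exact match each, at chr15:85360337-85360586, chr15:90358085-90358334 and chr19:58485903-58486152. The first and second lie inside the spans of ALPK3 and ANPEP used for counting, and the third ends at the border of the C19orf18 span. The ALPK3 stretch held 29 CG dinucleotides at a GC content of 76.0%, and 14.1% of 35116 RefSeq promoters of the same length held at least as many. The first ANPEP stretch held 26 at a GC content of 74.0%, a number reached by 19.6% of promoters. The C19orf18 stretch held 2 at a GC content of 51.6%, and 85.3% of promoters held at least as many. The median promoter held 11. The ALPK3 and first ANPEP stretches were thus CG-rich and the C19orf18 stretch was CG-poor. A second ANPEP start, farther downstream, had 9 CG dinucleotides in the same length (54.1% of promoters held at least as many). The counts do not distinguish transcripts from the ANPEP starts.

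In the control, ALPK3 had 107, 69 and 78 counts in replicates 1, 2 and 3, or 10.4, 7.80 and 9.42 CPM after scaling by trimmed mean of M values (TMM). With CBX1_W42A it had 111, 111 and 85 counts (10.2, 11.7 and 8.99 CPM), and with CBX1 253, 249 and 285 counts (28.2, 27.6 and 27.6 CPM). The CBX1_W42A libraries lay in the range of the control libraries and a little above it, and each CBX1 library was far above both groups. The means were 9.20 ± 1.30 CPM in the control, 10.3 ± 1.35 with CBX1_W42A and 27.8 ± 0.347 with CBX1 (SD, n = 3). The spread among the CBX1 libraries was the smallest of the 3 groups for ALPK3, with a coefficient of variation of 1.25%, against 14.1% in the control. Counting error alone would give a wider spread than 1.25% at 249 to 285 counts, so nothing is read from this value.

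ANPEP had 33, 19 and 25 counts in the control (3.20, 2.15 and 3.02 CPM) and 65, 49 and 52 with CBX1_W42A (5.95, 5.16 and 5.5 CPM). With CBX1 it had 127, 135 and 137 counts (14.1, 15.0 and 13.3 CPM). The 3 groups formed 3 separate steps with no overlap. The means were 2.79 ± 0.562, 5.54 ± 0.398 and 14.1 ± 0.852 CPM in the control, CBX1_W42A and CBX1 (SD, n = 3). ANPEP was the only one of these genes whose CBX1_W42A libraries all stood above all control libraries.

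C19orf18 was close to the limit of detection without the intact reader. It had 7, 1 and 11 counts in the control (0.679, 0.113 and 1.33 CPM), and 7, 7 and 9 with CBX1_W42A (0.641, 0.737 and 0.952 CPM). With CBX1 it had 67, 63 and 52 counts (7.46, 6.98 and 5.03 CPM). The CBX1_W42A libraries fell inside the range of the control libraries, and the lowest CBX1 library was above every library of the other groups. The means were 0.707 ± 0.608, 0.777 ± 0.160 and 6.49 ± 1.29 CPM (SD, n = 3).

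**Figure D1:**
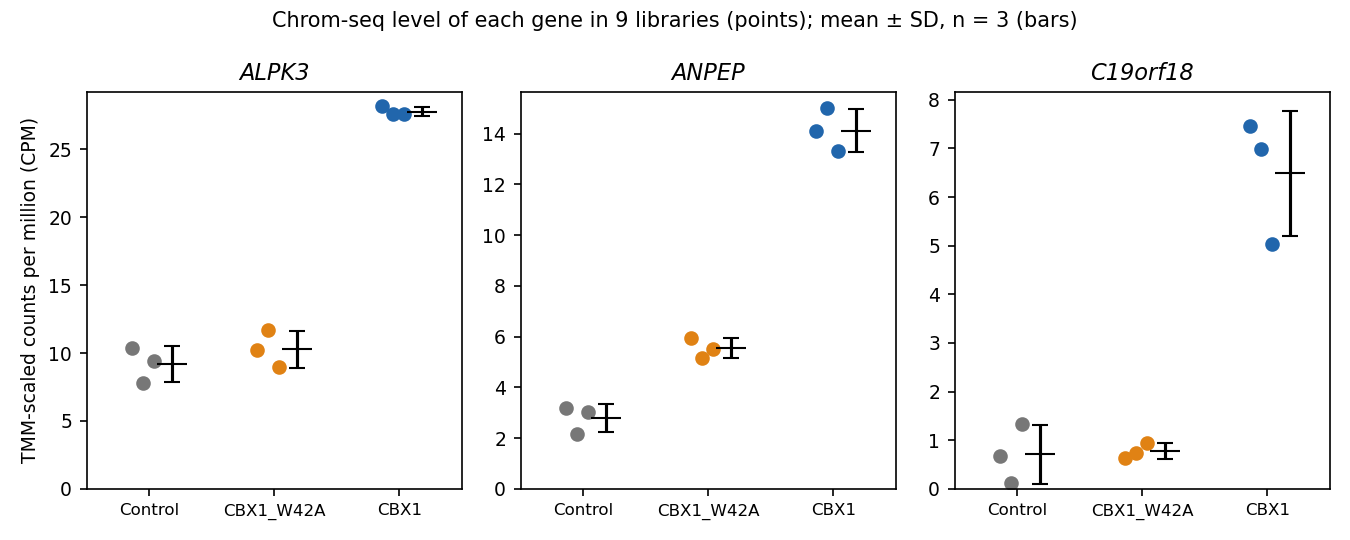
TMM-scaled CPM (y axis, linear, from 0, own scale per gene) of ALPK3, ANPEP and C19orf18 in the Control, CBX1_W42A and CBX1 libraries; each point is a library and the bars give the mean ± SD of 3. The CBX1 libraries sit at 27.6 to 28.2 CPM for ALPK3, 13.3 to 15.0 for ANPEP and 5.03 to 7.46 for C19orf18, above every other library, and all 3 CBX1_W42A libraries lie above the control range for ANPEP but not for ALPK3 or C19orf18.

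As a description, the log2 fold change of CBX1 over the control was 1.61 (SE 0.14) for ALPK3, 2.35 (SE 0.20) for ANPEP and 3.21 (SE 0.42) for C19orf18. These are 3.05, 5.09 and 9.28 times the control level. The largest absolute gain belonged to ALPK3, at 18.6 CPM, followed by ANPEP at 11.3 and C19orf18 at 5.78, the reverse of the order of the fold changes. The ratio for C19orf18 rested on 182 counts with CBX1 against 19 in the control, for which the counting interval (exact Clopper-Pearson, 95%, counting error only) ran from 5.77 to 15.8. Without Control replicate 3 its log2 fold change was 3.95, and without Control replicate 2 it was 2.72. Across all genes tested, 7.06% passed as higher with CBX1 (1330 of 18837, at an edgeR adjusted p below 0.05 and log2 0.75 or more), as did 4.76% of coding genes, 0.34% passed as lower and 17.9% had all CBX1 libraries above all control libraries. Nothing is read from this share for the 3 genes, which were chosen on the same comparison. In bulk libraries, more RNA in a cell, more cells holding it and more labeling of it cannot be told apart.

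The second comparison asked whether the mutant reader raised the same genes. The CBX1_W42A libraries took no part in choosing the genes, whereas the control libraries did, so its tests are not fully independent of the choice. ALPK3 differed from the control by log2 0.15 (95% interval -0.23 to 0.53, edgeR adjusted p = 0.713). C19orf18 differed by log2 0.13, with an interval from -1.18 to 1.45 (edgeR adjusted p = 0.936), which is an interval too wide to give a direction. It was 0.89 without Control replicate 3, -0.34 without Control replicate 2 and -0.03 without CBX1_W42A replicate 3. ANPEP was higher in 3 of 3 CBX1_W42A libraries, by log2 0.98 (interval 0.45 to 1.5), but missed the threshold with an edgeR adjusted p of 0.0544. Across 12 alternative fits its adjusted p ran from 0.0196 to 0.162, and 4 of them passed. Of all genes, 0.974% passed as higher (0.753% of coding genes) and 0.0214% as lower in this comparison, and 12.4% had all CBX1_W42A libraries above all control libraries. Expressed as a share of the mean gain seen with CBX1, the gain with CBX1_W42A was 5.81% for ALPK3, 24.3% for ANPEP and 1.21% for C19orf18.

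The third comparison, of CBX1 with CBX1_W42A, set the libraries of the intact chromodomain beside those of the mutated one. It shares the CBX1 libraries with the choice of the genes, so their values are again a description and were not tested. Of all genes, 0.795% (154 of 19360) passed as higher in this comparison, as did 0.754% of coding genes, and 0.201% passed as lower, and nothing is read from these shares for the 3 genes. C19orf18 was higher by log2 3.05 (interval 2.39 to 3.71), 8.27 times the CBX1_W42A level. ALPK3 was higher by log2 1.43 (interval 1.14 to 1.72), or 2.70 times. ANPEP was higher by log2 1.35 (interval 0.99 to 1.70), or 2.54 times. For each gene every CBX1 library was above every CBX1_W42A library, which held for 10.1% of all genes. Across 12 alternative fits the values ran from 2.92 to 3.21 for C19orf18, 1.35 to 1.55 for ALPK3 and 1.30 to 1.40 for ANPEP.

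**Figure D2:**
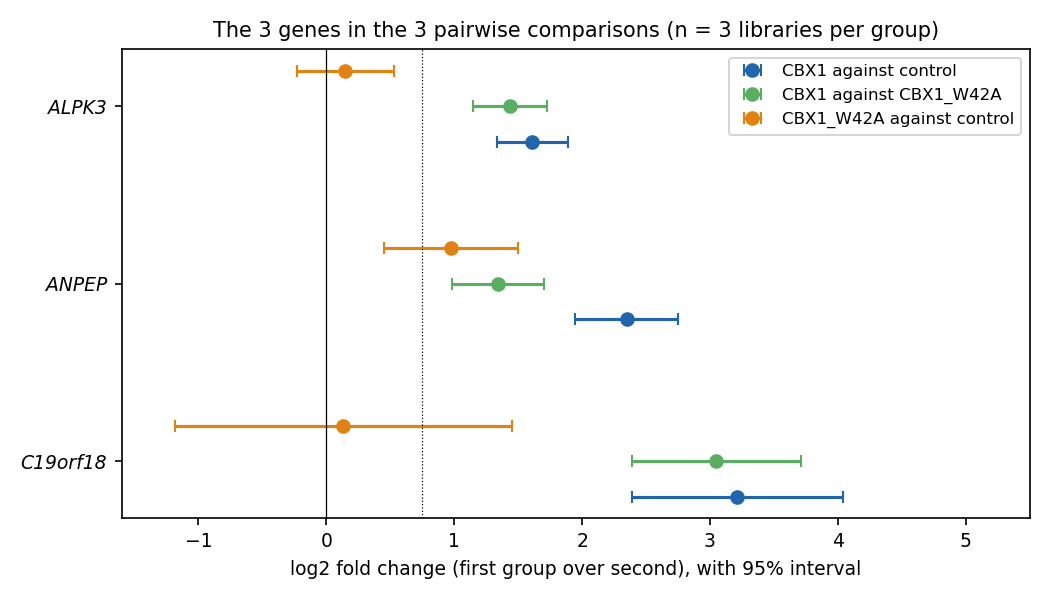
Log2 fold changes (x axis) of the 3 genes in the 3 pairwise comparisons of 3 libraries each, with 95% intervals as bars; the solid line marks no change and the dotted line the threshold of log2 0.75. The CBX1_W42A against control interval spans 0 for ALPK3 and C19orf18 and runs from 0.45 to 1.5 for ANPEP, and the intervals of CBX1 against CBX1_W42A all lie above the dotted line; comparisons share libraries and are not independent.

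Among coding genes without a zinc finger symbol (ZNF, ZSCAN, ZKSCAN, ZFP or ZBTB with a number), 13912 were tested and 636 passed as higher with CBX1 over the control. In that group C19orf18 ranked 16th by fold change, ANPEP 97th and ALPK3 251st, beside a median log2 fold change of 1.37. In CBX1_W42A against the control, 603 of these genes were tested and their median log2 fold change was 0.77. The rest had too few counts in the CBX1_W42A and control libraries for the filter and had entered the group through their counts with CBX1. The median and the ranks in this comparison leave them out, and their places are unknown. Counted from the lowest value, C19orf18 stood 28th and ALPK3 31st of these 603, and ANPEP stood 392nd. ALPK3 stood between 24th and 60th from the lowest with any 1 library left out, and ANPEP stayed above the median of the group. The place of C19orf18 rested on 1 library, since it stood 330th of 601 without Control replicate 3, above the median of 0.80, and 2nd to 50th with any other library left out. In CBX1 against CBX1_W42A, C19orf18 had the 3rd highest fold change of the 636 genes, ALPK3 the 49th and ANPEP the 53rd, beside a median of 0.54. These ranks are descriptions, since the group was selected on CBX1 over the control and the comparisons share libraries.

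**Figure D3:**
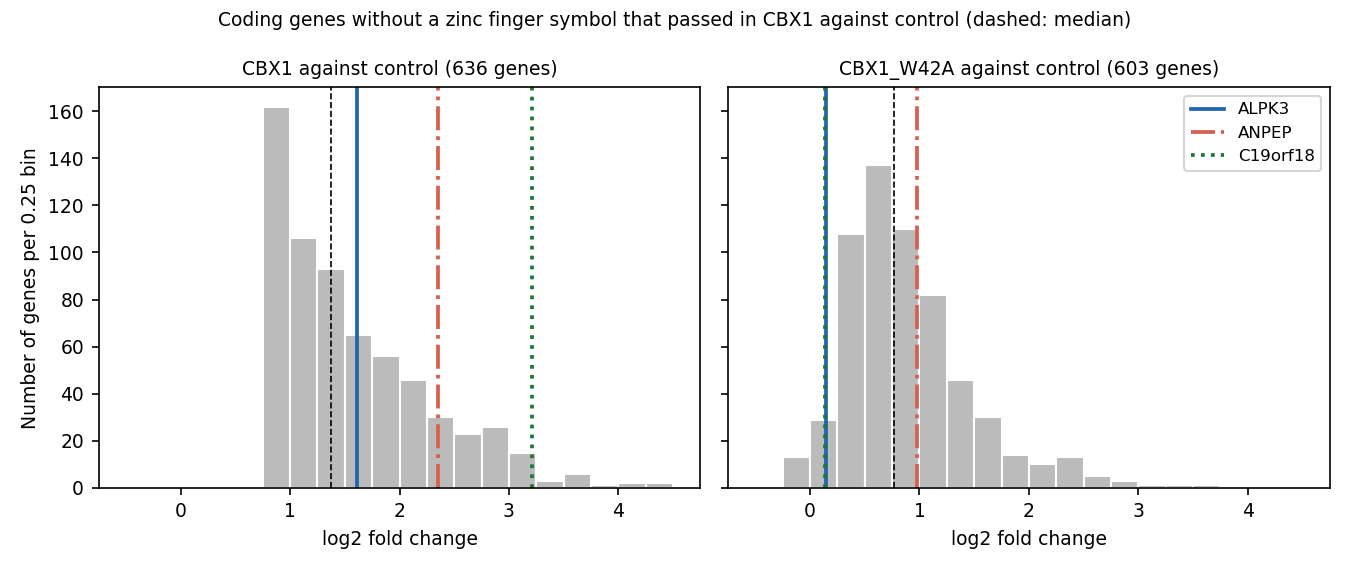
Histograms of log2 fold changes (x axis, bins of 0.25) over the coding genes without a zinc finger symbol that passed in CBX1 against the control, in that comparison (left, 636 genes) and in CBX1_W42A against the control (right, 603 genes); the y axis counts genes, the dashed line is the median and colored lines mark ALPK3, ANPEP and C19orf18. On the right, ALPK3 at 0.15 and C19orf18 at 0.13 lie left of the median of 0.77 and ANPEP at 0.98 lies right of it; both panels use the same control libraries.

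The windows of 200 kb on either side of the 3 genes held 65 other genes, 34 of them coding. Of these, 32 had enough counts to be tested in CBX1 against the control, and 24 had no count in any library. Of these 24, 13 lie inside another gene of their strand, where the counting assigned no reads. With CBX1 over the control, 6 of the 32 flanking genes passed as higher, beside 7.06% of all genes. They include SLC28A1, which cleared the filter only through its counts with CBX1. As lower, 0 passed, beside 0.34% of all genes (0 by DESeq2, and 6 negative at an unadjusted p below 0.05). With CBX1_W42A over the control, 0 of 31 passed in either direction by edgeR or DESeq2, beside 0.974% of all genes as higher and 0.0214% as lower. This count of 0 lies near those shares, and nothing is read from it. SLC28A1 fell under the filter here. At an unadjusted p below 0.05 there were 1 positive and 4 negative values. With CBX1 over CBX1_W42A, 4 of 32 passed as higher, beside 0.795% of all genes. As lower, 0 passed, beside 0.201% of all genes (0 by DESeq2, and 2 negative at an unadjusted p below 0.05). The 6 and the 4 were unevenly placed, since 5 and 4 of them lay around C19orf18.

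Around ALPK3, 9 of 16 flanking genes were tested, with a median log2 fold change of -0.06 for CBX1 over the control. The nearest coding gene upstream on the same strand, ZNF592, a zinc finger gene whose end lies 10.3 kb before the ALPK3 start, went the other way from ALPK3. ZNF592 had 153, 132 and 140 CPM in the control and 90.6, 104 and 91.3 CPM with CBX1, so all CBX1 libraries were below all control libraries. Its log2 fold change was -0.55 (edgeR adjusted p = 0.00108), short of the fold threshold, and with CBX1_W42A it was -0.48 (edgeR adjusted p = 0.0291). The nearest tested gene downstream, SLC28A1, encodes a sodium-coupled nucleoside transporter of kidney and gut and starts 11.2 kb past the ALPK3 end on the same strand. SLC28A1 had 0, 2 and 0 counts in the control, 6, 1 and 2 with CBX1_W42A and 12, 6 and 10 with CBX1. It passed as higher with CBX1 over the control (edgeR adjusted p = 0.0119), and the ratio of summed counts was 13.5 with a counting interval from 3.42 to 117. Without Control replicate 2 the control held 0 counts, and the fitted log2 fold change moved from 3.55 to 6.24. Over CBX1_W42A the ratio was 3.28 (counting interval 1.5 to 7.9) and SLC28A1 did not pass (edgeR adjusted p = 0.204). The other 8 tested genes of the window did not pass in any of the comparisons.

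Around ANPEP, 10 of 23 flanking genes were tested and 0 passed in any of the 3 comparisons, by edgeR or DESeq2. Over all genes, 7.06% passed as higher with CBX1 over the control and 0.974% with CBX1_W42A over the control. For CBX1 over CBX1_W42A the share was 0.795%. The count of 0 among these 10 genes lies near those shares, and nothing is read from it. At an unadjusted p below 0.05, 1 was positive and 4 were negative for CBX1 over the control, 1 and 2 for CBX1_W42A over the control, and 0 and 1 for CBX1 over CBX1_W42A. The median log2 fold change for CBX1 over the control was -0.02, with a range from -0.42 to 0.53, beside 2.35 for ANPEP itself. The nearest coding gene upstream on the same strand is AP3S2, a subunit of the AP-3 vesicle adaptor, which ends 15.2 kb before the ANPEP start. AP3S2 had 263, 216 and 177 counts in the control and 163, 181 and 171 with CBX1, a log2 fold change of -0.36 (edgeR adjusted p = 0.0571). These counts are uncertain, because AP3S2 shares 94.2% of its span with other genes of its strand. The nearest tested gene downstream, MESP2, a transcription factor of somite formation, lies 6.14 kb away and had 2 to 10 counts per library. Its log2 fold change was 0.37 (edgeR adjusted p = 0.715). A pair of genes, named here after their values were seen, had an adjusted p below 0.05 without reaching the fold threshold. PLIN1, a lipid droplet coat protein, was at log2 0.53 (edgeR adjusted p = 0.0423) and PEX11A, a peroxisome division factor, at -0.41 (edgeR adjusted p = 0.0357).

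Around C19orf18, 13 of 26 flanking genes were tested, 10 of them zinc finger genes. The median log2 fold change for CBX1 over the control was 0.82. Of the 13, 5 passed as higher, beside 7.06% of all genes and 4.76% of coding genes. In 9 of the 13, all CBX1 libraries were above all control libraries, beside 17.9% of all genes. Most of the 13 are zinc finger genes, and the part of gene family or of location in these counts was not tested. The 5 were the zinc finger genes ZNF606, ZNF418, ZSCAN18 and ZNF329 and the gene CTD-2368P22.1. The last is listed as coding in the annotation used for counting and as a long noncoding RNA in a later one. None of their log2 fold changes reached that of C19orf18, at 3.21.

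The nearest coding gene upstream on the same strand, ZNF606, ends 2.52 kb before the C19orf18 start. ZNF606 had 6.50, 8.37 and 6.88 CPM in the control, 8.88, 8.95 and 5.5 with CBX1_W42A and 12.9, 12.8 and 12.1 with CBX1. Its log2 fold change over the control was 0.82 (edgeR adjusted p = 0.00334), and without Control replicate 1 it was 0.74, under the fold threshold. Over CBX1_W42A it was 0.69 (edgeR adjusted p = 0.061), which did not pass. On the other side, ZNF256, 10.8 kb downstream, was at log2 -0.04 for CBX1 over the control (edgeR adjusted p = 0.881), although ZNF418 beyond it passed.

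ZNF418, 23.0 kb downstream, had 2.04, 1.47 and 1.81 CPM in the control, 1.37, 2.84 and 0.847 with CBX1_W42A and 6.01, 5.21 and 5.61 with CBX1. Its CBX1_W42A libraries lay on both sides of the control libraries, and every CBX1 library was above both groups. ZNF418 was higher with CBX1 by log2 1.67 over the control (edgeR adjusted p = 0.000686) and by 1.73 over CBX1_W42A (edgeR adjusted p = 0.00733). The second value was 2.32 without CBX1_W42A replicate 2, and it passed in all 12 alternative fits. CTD-2368P22.1, 27.5 kb upstream on the opposite strand, had 2.91, 1.47 and 1.57 CPM in the control, 2.75, 4.42 and 2.22 with CBX1_W42A and 7.02, 8.64 and 5.90 with CBX1. It was higher by log2 1.84 over the control (edgeR adjusted p = 0.000516) and by 1.20 over CBX1_W42A (edgeR adjusted p = 0.0204). It overlaps the start of ZNF606 on the opposite strand, and the counting kept the strands apart.

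Farther upstream, ZSCAN18, at 109 kb, was higher by log2 1.01 over the control (edgeR adjusted p = 0.00118) and by 0.77 over CBX1_W42A (edgeR adjusted p = 0.0204). ZNF329, at 152 kb, was higher by log2 1.19 over the control (edgeR adjusted p = 0.000509) and by 0.96 over CBX1_W42A (edgeR adjusted p = 0.0125). The calls over CBX1_W42A leaned on single libraries. Without CBX1_W42A replicate 1 or CBX1 replicate 1, 1 flanking gene passed in place of 4, and without CBX1_W42A replicate 3 or CBX1 replicate 2, 2 passed. ZNF329 was at 0.72 without CBX1_W42A replicate 1 (edgeR adjusted p = 0.0535) and 0.89 without CBX1 replicate 1 (edgeR adjusted p = 0.0758), and passed neither time. Without any one of these 4 libraries, CTD-2368P22.1 stood at 1.01 to 1.21 (edgeR adjusted p = 0.0617 to 0.0854) and ZSCAN18 at 0.63 to 0.82 (edgeR adjusted p = 0.056 to 0.0929), and neither passed. With CBX1_W42A over the control, the window had a median log2 fold change of 0.17, and ZNF606, ZNF418, CTD-2368P22.1, ZSCAN18 and ZNF329 were at 0.10, -0.09, 0.62, 0.21 and 0.20, with edgeR adjusted p-values of 0.365 or more. Of the 13 tested genes, 1 had all CBX1_W42A libraries above all control libraries, near the share of 12.4% of all genes.

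**Figure D4:**
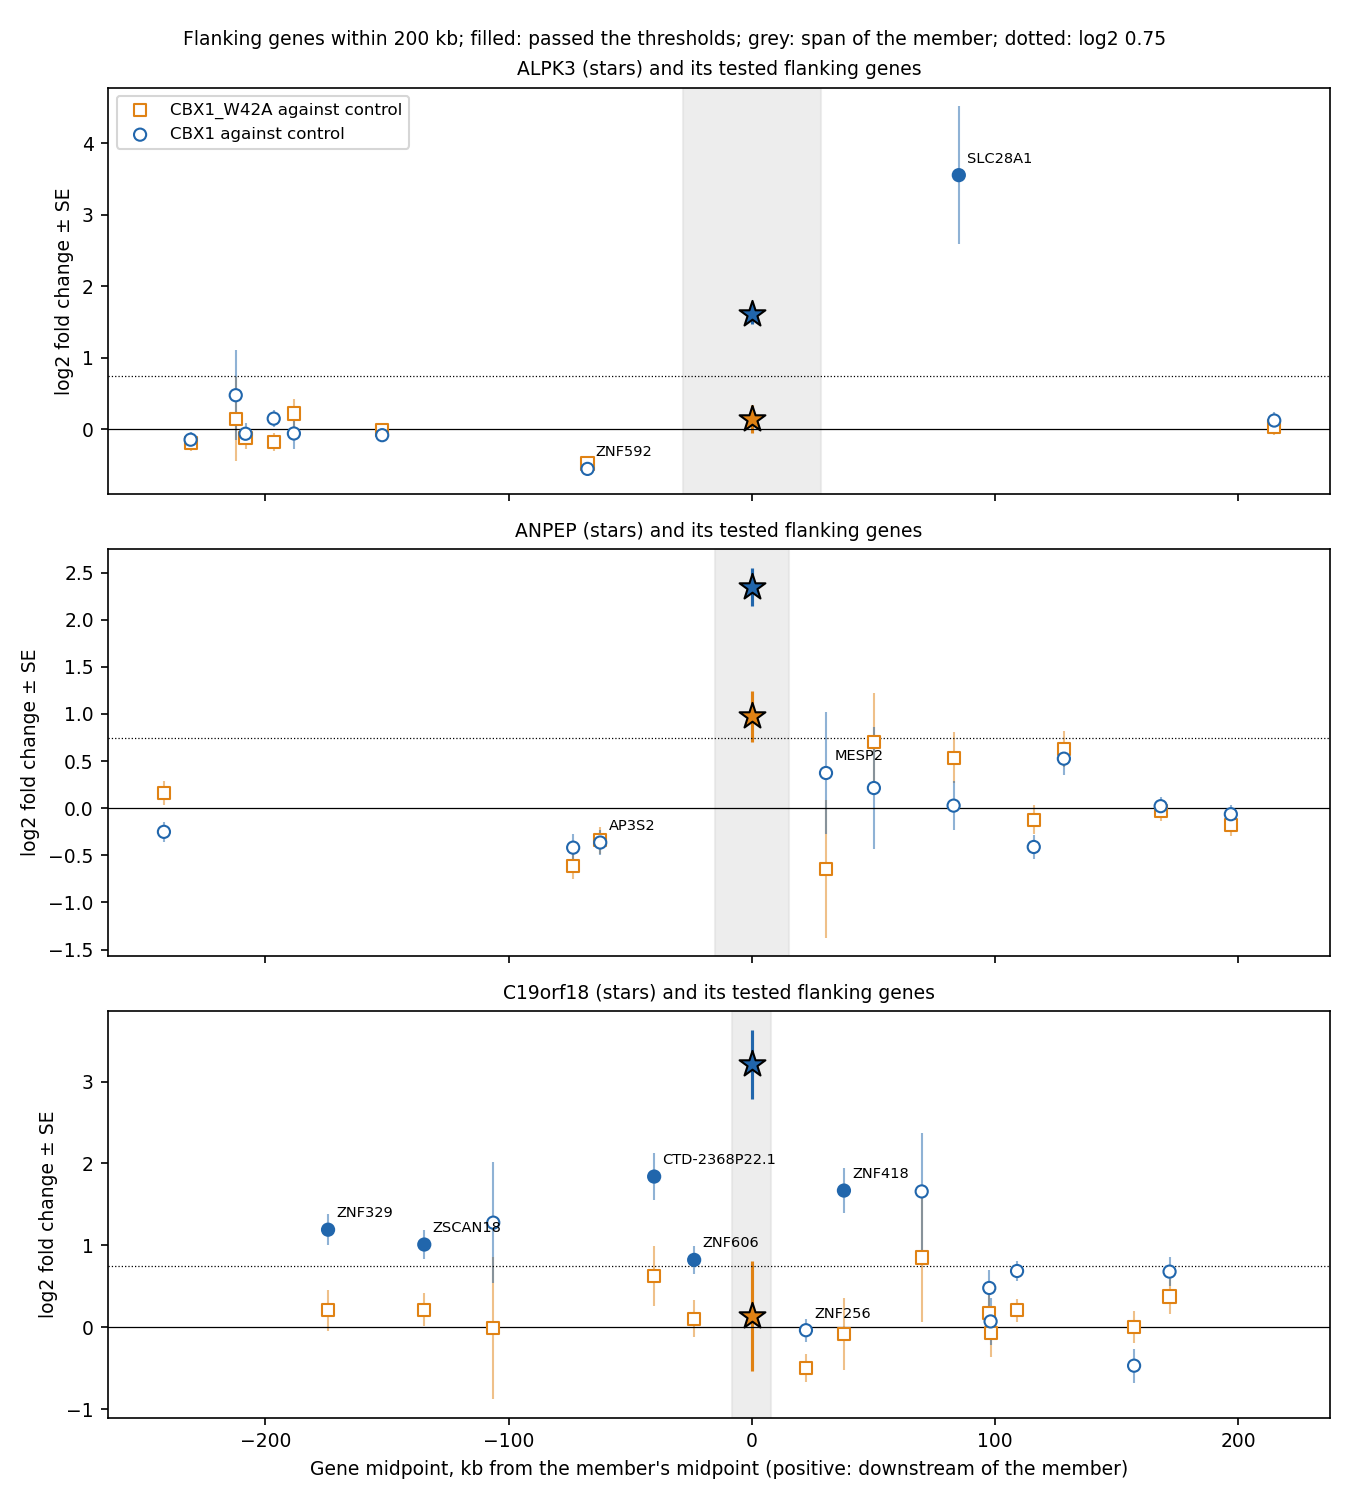
Log2 fold change ± SE (y axis) of ALPK3, ANPEP and C19orf18 (stars) and of their tested flanking genes within 200 kb, against the distance between gene midpoints in kb (x axis, positive downstream), for CBX1 (blue circles) and CBX1_W42A (orange squares) over the control; filled symbols passed and the grey band is the span of the central gene. Filled circles number 1 around ALPK3, 0 around ANPEP and 5 around C19orf18, and no square is filled; stars are drawn filled without a test.

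No relative of ALPK3 or ANPEP passed the test, but the lists are short. Over all genes, 7.06% passed as higher with CBX1 over the control and 0.974% with CBX1_W42A over the control. For CBX1 over CBX1_W42A the share was 0.795%. Counts of 0 on lists of this length lie near these shares, and nothing is read from them. The alpha kinase list held 6 genes, and of the 5 other than ALPK3 (ALPK1, ALPK2, EEF2K, TRPM6 and TRPM7), 0 passed in any comparison by edgeR or DESeq2, with 0 at an unadjusted p below 0.05. Their log2 fold changes for CBX1 over the control ran from -0.18 for TRPM7, a channel kinase, to 0.38 for TRPM6, with a median of -0.06 beside 0.03 for all genes. Of the 12 M1 aminopeptidases and relatives other than ANPEP, 0 passed in any comparison by edgeR or DESeq2. At an unadjusted p below 0.05 for CBX1 over the control, 1 was positive and 3 were negative, for CBX1_W42A over the control 0 and 5, and for CBX1 over CBX1_W42A 0 and 1. Their median was -0.26, from -0.50 for ERAP1, which trims peptides for antigen presentation, to 0.38 for C9orf3. ERAP1, its neighbor in function ERAP2 at -0.45 and TAF2, a subunit of TFIID, at -0.37 had edgeR adjusted p-values of 0.0189, 0.0322 and 0.0158 below the fold threshold, and are named after their values were seen. ENPEP, another aminopeptidase of the cell surface, was at log2 0.36 (edgeR adjusted p = 0.165).

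Of the markers of tissues where ALPK3 and ANPEP are best known, some had no count, others were well covered, and some moved with the groups. Of 6 heart muscle genes, the defining TNNT2 had no count in any library, and the summed level was 62.8 to 66.0 CPM in the control, 53.8 to 67.8 with CBX1_W42A and 37.2 to 50.2 with CBX1. Most of this sum was ACTN2, a Z-disc protein, which averaged 62.9 CPM in the control and 57.5 with CBX1_W42A and was at log2 -0.68 with CBX1 (edgeR adjusted p = 0.000609). NPPA, the atrial natriuretic peptide, was higher by log2 2.87 with CBX1 (edgeR adjusted p = 0.00157) and the cardiac troponin gene TNNI3 by 1.84 (edgeR adjusted p = 0.0114). Both were at low levels, averaging 0.401 and 0.712 CPM in the control and 2.98 and 2.52 with CBX1. On its control counts alone NPPA would have fallen under the filter, so it entered this comparison through its counts with CBX1. All CBX1_W42A libraries were also above all control libraries for NPPA, by log2 1.95, without passing (edgeR adjusted p = 0.0856). TNNI3 was at -0.09 with CBX1_W42A (edgeR adjusted p = 0.965). The other tested heart gene, MYH6, did not pass. Of 6 myeloid genes, CD33 had no count and PTPRC, the pan-leukocyte CD45, had 3 counts in all 9 libraries. The summed myeloid level was 3.98 to 5.32 CPM in the control, 8.97 to 12.1 with CBX1_W42A and 7.83 to 10.6 with CBX1. ITGAM, an integrin subunit, was higher by log2 1.32 with CBX1 and 1.54 with CBX1_W42A (edgeR adjusted p = 0.00346 and 0.00908). Of 6 brush border genes, SLC34A1 and SI had no count, and the endocytic receptor LRP2 averaged 24.1, 21.9 and 24.2 CPM in the control, CBX1_W42A and CBX1. CUBN was higher by log2 1.33 with CBX1 (edgeR adjusted p = 0.00175). All CBX1_W42A libraries were also above all control libraries for CUBN, by log2 0.86, without passing (edgeR adjusted p = 0.128). For CBX1 over CBX1_W42A, CUBN was at 0.44 (edgeR adjusted p = 0.412). The brush border sums overlapped between groups, at 30.1 to 36.1, 30.2 to 34.1 and 31.9 to 44.7 CPM in the same order. The part of these markers in the results for ALPK3 and ANPEP was not tested.

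Measured per kilobase of exon, the 3 genes were low in the control and stood at different places among coding genes with CBX1. In the control, ALPK3 was at 0.897, ANPEP at 0.553 and C19orf18 at 0.772 CPM per exonic kb, above 19.8%, 14.9% and 18.2% of the coding genes tested, whose median was 5.11. With CBX1, ALPK3 was at 2.71 and ANPEP at 2.80, above 35.2% and 35.9% of those genes, and C19orf18 at 7.09, above 60.3%. With CBX1_W42A they were at 1.00, 1.10 and 0.849. The place of C19orf18 depends on the scale, since its exons cover 0.915 kb, less than in all but 1.36% of coding genes. Per kilobase of gene span the 3 genes were close to each other with CBX1, at 0.489, 0.463 and 0.403 CPM, and C19orf18 was above 38.2% of coding genes. Exon lengths came from a later annotation of the same genome, and the counts do not separate exons from introns.

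The position of the genes had a shared feature. Each had a coding gene on its own strand ending within 20 kb upstream, as did 30% of the coding genes tested. The distances of 10.3, 15.2 and 2.52 kb were shorter than in all but 19.7%, 25.4% and 6.97% of genes, for ALPK3, ANPEP and C19orf18. Among coding genes with such a neighbor, 7.15% passed as higher with CBX1 over the control, and 3.74% of the others did. For CBX1_W42A over the control the shares were 1.37% and 0.488%, and for CBX1 over CBX1_W42A 1.05% and 0.628%. These shares are descriptions over genes, which are not replicates. They include the zinc finger genes, and the part of that family in them was not tested. The neighbors ZNF592 and AP3S2 had negative values with CBX1 and ZNF606 passed as higher, so the upstream genes did not move together. Other overlap was small, since ANPEP and C19orf18 shared no base with another gene and ALPK3 shared 0.208% of its span with SNORA25 on the opposite strand, also in the later annotation.

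Over the 9 libraries, the log2 CPM of the 3 genes followed each other, with a Pearson's r of 0.943 between ALPK3 and C19orf18, 0.931 between ALPK3 and ANPEP and 0.914 between ANPEP and C19orf18. These values describe genes that were chosen for the same rise and share all libraries. Of the 14305 genes that averaged 20 or more counts, the most like ALPK3 were COL24A1 (r = 0.983), AC004076.9 (r = 0.975) and SLC6A13 (r = 0.967). SLC6A13, a GABA transporter gene on chromosome 12, had mean levels of 2.83, 4.37 and 11.0 CPM in the control, CBX1_W42A and CBX1. The most like ANPEP were IL20RB (r = 0.982), DNHD1 (r = 0.980) and IL17F (r = 0.978). IL20RB, a cytokine receptor subunit, had 2.37, 3.40 and 6.06 CPM in the same order, and IL17F, a cytokine, had 0.939, 2.09 and 7.83 CPM. Their CBX1_W42A means lay between the other groups, as did those of the 3 genes and of all the other genes named here as most alike. The most like C19orf18 were the antisense gene ENSG00000261879.1 (r = 0.979), SMAD3 (r = 0.971) and TMEM254-AS1 (r = 0.968). SMAD3, a transcription factor of TGF-β signaling, had 47.6 CPM with CBX1_W42A and 59.3 with CBX1, so a gene can follow C19orf18 in shape with a far smaller fold change.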

How the data were processed

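Raw counts per gene were analysed for 9 Chrom-seq libraries of HEK293T cells. To make them, the authors used fastp 0.23.1 for trimming, HISAT2 2.1.0 for alignment to hg19 and featureCounts 2.0.1 with the GENCODE v19 annotation. They deposited whole-number counts for 57820 genes without normalization. The strand setting and the feature counted are not given in the sources used here. In the file, the length of 57820 of 57820 genes equals their span, and of 7910 genes inside another gene of their strand 0 have a count, so reads in shared stretches of a strand were assigned to no gene. Of 9345 genes inside a gene of the opposite strand and sharing no base on their own, 3771 have a count, so the strands were counted apart. Per-sample columns not used numbered 0.

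Counts were scaled by TMM factors and compared between pairs of groups by the quasi-likelihood test of edgeR 4.0.16 (limma 3.58.1, R 4.3.3) with Benjamini-Hochberg adjustment over all genes whose counts summed to more than 18 in the 6 libraries. A gene passed where its adjusted p was below 0.05 and its log2 fold change 0.75 or more in size, after the thresholds of the study. Standard errors came from the coefficient and its quasi-likelihood F statistic, and 95% intervals from the standard error by the normal approximation. For the tests, the factors were fitted on the libraries of each pair of groups. CPM were computed from separate TMM factors, fitted once over all 9 libraries, and log2 CPM with a prior count of 2. The test was checked on simulated counts for CBX1 against control: of 200 among 18532 genes changed by log2 1.5, edgeR found 197 with 7 false calls and DESeq2 1.42.0 found 196 with 2. The changed genes all averaged 20 or more counts, with as many raised as lowered. The check therefore gives no recovery for genes with fewer counts. Depth was 8379542 to 11082852 counts per library, and counting intervals cover counting error only.

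The alternatives were DESeq2, RLE factors, the library size alone, no filter, 1 fit over all 9 libraries, a block for the replicate number, log2 1 as the smallest fold change, windows of 100 kb and leaving out each library. The 3 genes, the marker and family lists and the comparisons were chosen with earlier results of these data known. Beside the 3 genes, the text names the nearest tested gene on each side, the nearest coding gene upstream on the same strand, flanking and family genes that passed, and the 3 genes most alike, unless it says otherwise. Sequences and exon lengths came from RefSeq (GRCh38.p14) and GENCODE v44lift37 (GRCh37). Tables and plots were made with Python 3.11.15, scipy 1.17.1, pandas 2.3.3, matplotlib 3.10.9 and numpy 2.4.6.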

Additional observations from a re-analysis of the deposited data

How the results depend on the processing

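For CBX1 against the control, the log2 fold changes of ALPK3, ANPEP and C19orf18 stayed within 1.49 to 1.71, 2.18 to 2.46 and 2.72 to 3.95. The ANPEP difference between CBX1_W42A and the control (log2 0.98, edgeR adjusted p = 0.0544) passed with the library size alone (1.05, edgeR adjusted p = 0.0447), without a filter (0.97, edgeR adjusted p = 0.0261), with all 9 libraries in one fit (0.98, edgeR adjusted p = 0.0196) and with the replicate block (0.98, edgeR adjusted p = 0.0495). It did not pass when any library was left out (0.83 to 1.10), by DESeq2 or with RLE factors. The C19orf18 difference in the same comparison turned from 0.13 to -0.34 without Control replicate 2 and to -0.03 without CBX1_W42A replicate 3, in a range of -0.34 to 0.89. The cause was not tested. The ranks among coding genes with a library left out were added after seeing the data.

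The flanking genes that passed as higher numbered 4 to 8 for CBX1 against the control (6 as reported) and 0 for CBX1_W42A against the control under every alternative, and 0 passed as lower in any comparison. For CBX1 against CBX1_W42A the 4 became 1 to 5 with a library left out, 2 at a minimum log2 fold change of 1, and 2 in windows of 100 kb, an alternative chosen after seeing the data that holds fewer genes. With windows of 100 kb, 3, 6 and 9 flanking genes of ALPK3, ANPEP and C19orf18 were tested in place of 9, 10 and 13.

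Same-numbered libraries did not deviate together: the correlation of their deviations from the group means over 14305 genes was -0.22 to 0.17, and the numbers were not treated as pairs. With the replicate block, 1021 genes in place of 1330 passed as higher for CBX1 against the control, 201 in place of 182 for CBX1_W42A against the control and 250 in place of 154 for CBX1 against CBX1_W42A; lower calls in the last went from 39 to 66. Among ALPK3, ANPEP and C19orf18, depth limits C19orf18 most, with 19 counts in the control and 23 with CBX1_W42A.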
